A study of Mus musculus with 18 samples.

Results

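The effect of silencing Chst7 was measured 1 day after the start of cardiac reprogramming in mouse embryonic fibroblasts. The comparison took all 3 siChst7 and all 3 siControl libraries of day 1, 6 of the 18 libraries of the series, and all 24514 genes of the count table, of which 13802 were expressed highly enough to be tested. The siChst7 cells were iMGT-Myh6-eGFP fibroblasts transfected with siRNA against Chst7 and given doxycycline at 1 µg/mL on the following day. The siControl cells were the same line with a control siRNA, the same doxycycline and the same harvest day. Both groups therefore carried inducible Mef2c, Gata4 and Tbx5 (MGT) and an eGFP reporter driven by the heart gene Myh6. Each sample pooled 40 wells plated at 1000 cells per well, labelled as biological replicates, so p-values measure the spread between such pools. The labels name neither the sequence nor the number of siRNAs against Chst7. Effects through Chst7 and other effects of that siRNA cannot be told apart.

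Chst7 is a Golgi enzyme that transfers sulfate to sugar chains, chiefly the chondroitin sulfate chains carried by proteoglycans of the cell surface and matrix. Such chains bind growth factors, chemokines and matrix proteins. In MGT reprogramming, the delivered factors switch on heart muscle genes while fibroblast and inflammatory programs decline, and inflammatory and TGF-beta signalling are known to oppose the conversion.

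Total counts were 39246932 to 44807490 in siChst7 and 34467618 to 36188373 in siControl libraries at day 1. Replicates differed by more than sampling noise, their pairwise chi-square statistics over genes being 3.39 to 5.27 times the degrees of freedom in siChst7 and 2.92 to 3.49 times in siControl. The first principal component of the 6 libraries (35.1% of variance) placed siChst7 at -20.2 to -18.2 and siControl at 18.3 to 21.1. The ribosomal RNA precursor Rn45s, which poly-A selection should remove, held 0.307% to 0.357% of counts in siChst7 and 0.249% to 0.278% in siControl. The rank correlation of gene length with the difference from siControl was -0.14, -0.0023 and -0.086 in siChst7 libraries. It was 0.054, -0.072 and 0.023 in siControl libraries, so the groups overlapped. The part of Rn45s and of gene length in the results below was not tested. Of 12 embryonic fibroblast markers listed for the labelled cell type, 10 were tested, while Thy1 and Lum lay under 1 CPM (a gene's count relative to its library total, scaled by TMM) in both groups. Of these 10, Pdgfrb, Col1a2, Fbn1, Dcn and S100a4 were called higher and Vim alone lower, with a median log2 fold change (log2FC, siChst7 over siControl) of 0.19. The S100a4 call was lost whichever day 1 library was left out. The summed level of the markers went the other way, at 13200 to 13500 CPM in siChst7 and 14700 to 15300 CPM in siControl, with Vim making up much of both. Markers of erythroid cells were at 0 in 6 of 7 cases and endothelial markers lay under 1 CPM in 9 of 10. Endothelial markers summed to 4.59 to 5.1 CPM in siChst7 and 3.13 to 3.71 CPM in siControl, with 1 of 4 tested called higher (5.79). Neural and glial markers summed to 738 to 768 CPM in siChst7 and 660 to 692 CPM in siControl, with 1 of 6 called higher (0.16). RNA quality and nuclear RNA genes summed to 4790 to 5260 CPM in siChst7 and 4210 to 4460 CPM in siControl, with 1 of 7 called higher (0.82).

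Chst7 (chromosome X, 20058963 to 20099991, GRCm38) was almost lost. It had 0.950, 0.581 and 0.733 CPM in siChst7 libraries, against 40.4, 37.2 and 35.3 CPM in siControl libraries. The residual level was 2.01% of siControl, with a log2FC of -5.65 ± 0.17 (SE; edgeR adjusted p = 8.77e-16). Set per length, as RPKM (CPM per 1000 bases of gene length), Chst7 was the sixth of 20 sulfotransferase and sulfate supply genes in siControl cells at 17.15 RPKM, close to the chondroitin 4-sulfotransferase Chst11 (16.71 RPKM) and the dermatan 4-sulfotransferase Chst14 (17.36 RPKM). In siChst7 cells it was at 0.344 RPKM and in place 13. Chst3, the other main chondroitin 6-sulfotransferase, had 4.87 RPKM in siChst7 and 4.65 RPKM in siControl cells, with a log2FC of 0.07 ± 0.09 (edgeR adjusted p = 0.688). No sulfotransferase or sulfate supply gene of the list was called higher. Chst12, another chondroitin 4-sulfotransferase, was lower, at 42.9, 41.1 and 40.4 CPM in siChst7 and 49.2, 55.4 and 50.3 CPM in siControl libraries, groups that did not overlap (-0.32 ± 0.06; edgeR adjusted p = 0.000437). The HNK-1 sulfotransferase Chst10 was called lower near the floor (-0.76; edgeR adjusted p = 0.0464), a call lost under 8 alternative settings, leaving out any 1 day 1 library but siChst7 replicate 2 among them.

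Chst7 included, edgeR called 2426 genes (17.6% of those tested; Benjamini-Hochberg adjusted p below 0.05), 1223 higher (8.86%) and 1203 lower (8.72%) in siChst7 cells. Most shifts were small: 101 genes were higher and 39 lower by at least 2-fold, the 39 becoming 18 without siControl replicate 3. The median log2FC of all tested genes was 0.01. The 2 groups of libraries did not overlap in 39.4% of genes, 21.3% higher and 18.1% lower in siChst7.

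**Figure D1:**
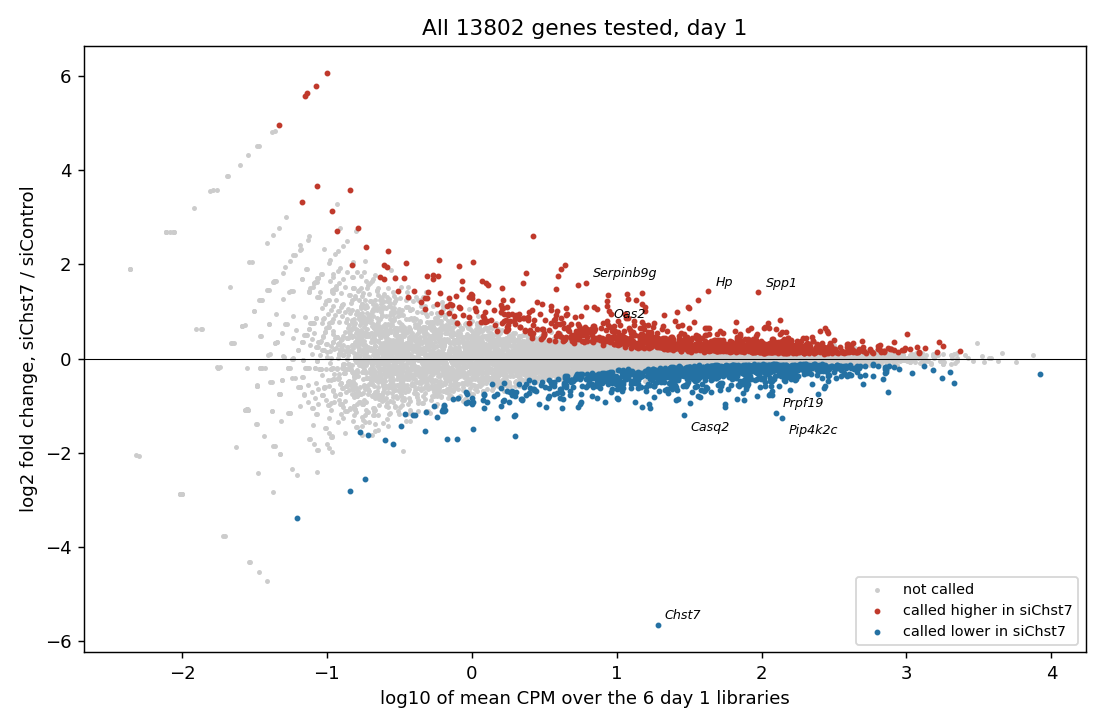
Each point is 1 of the 13802 tested genes, placed by its mean level over the 6 day 1 libraries (CPM, log10 axis) and its log2 fold change, siChst7 over siControl. Red points were called higher and blue points lower in siChst7 by edgeR. Chst7 stands alone at -5.65, and the wide fans at the left are genes with few counts.

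Among genes with at least 5 CPM on average, the 12 with the largest rises rose by 1.16 to 1.61 on the log2 scale. Hp encodes the secreted protein haptoglobin, which scavenges free haemoglobin. It had 61.9, 62.0 and 62.8 CPM in siChst7 and 22.1, 23.6 and 23.7 CPM in siControl libraries, groups with little spread that lay far apart (1.42 ± 0.08; edgeR adjusted p = 1.64e-11). Spp1, which encodes the matrix cytokine osteopontin, had 141, 141 and 131 CPM in siChst7 and 56.3, 47.7 and 52.2 CPM in siControl libraries (1.40 ± 0.13; edgeR adjusted p = 8.16e-08). The others of the 12 were the intracellular serpin Serpinb9g (1.61), the chitinase-like protein Chil1 (1.56), the TNF family ligand Tnfsf15 (1.38), the membrane-anchored semaphorin Sema7a (1.36), the extracellular superoxide dismutase Sod3 (1.34), the collagenase Mmp13 (1.26), the adhesion molecule Alcam (1.24), the IL-33 receptor Il1rl1 (1.24), the antiviral enzyme Oas2 (1.21) and the acetyl-CoA carboxylase Acacb (1.16). All had groups that did not overlap.

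After Chst7, the largest decreases were in genes of varied function. Pip4k2c, a lipid kinase gene, had 80.8, 82.2 and 81.7 CPM in siChst7 and 192, 201 and 191 CPM in siControl libraries (-1.26 ± 0.05; edgeR adjusted p = 2.27e-14). Prpf19, which encodes a ubiquitin ligase of the spliceosome, had 77.0, 80.6 and 76.2 CPM in siChst7 and 169.5, 172 and 176 CPM in siControl libraries (-1.15 ± 0.04; edgeR adjusted p = 2.27e-14). The replicates of both were tight, with SDs under 6 CPM in either group. Both genes were also lower in siChst7 cells before doxycycline, with a day 0 log2FC of -1.16 ± 0.05 for Pip4k2c and -1.08 ± 0.04 for Prpf19. At day 3 it was -0.78 ± 0.05 for Pip4k2c and -0.65 ± 0.04 for Prpf19. The phosphatase Ppm1m was likewise at -1.02 on day 1 and -0.98 on day 0. Others of the 12 were Casq2 and Mylk, described below, the Golgi glutaminyl cyclase Qpctl (-1.03), the respiratory complex III assembly factor Lyrm7 (-1.02), the medium-chain acyl-CoA dehydrogenase Acadm (-0.96), the lysophosphatidic acid receptor Lpar2 (-0.96), and the zinc finger repressor Klf8 (-0.96).

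**Figure D2:**
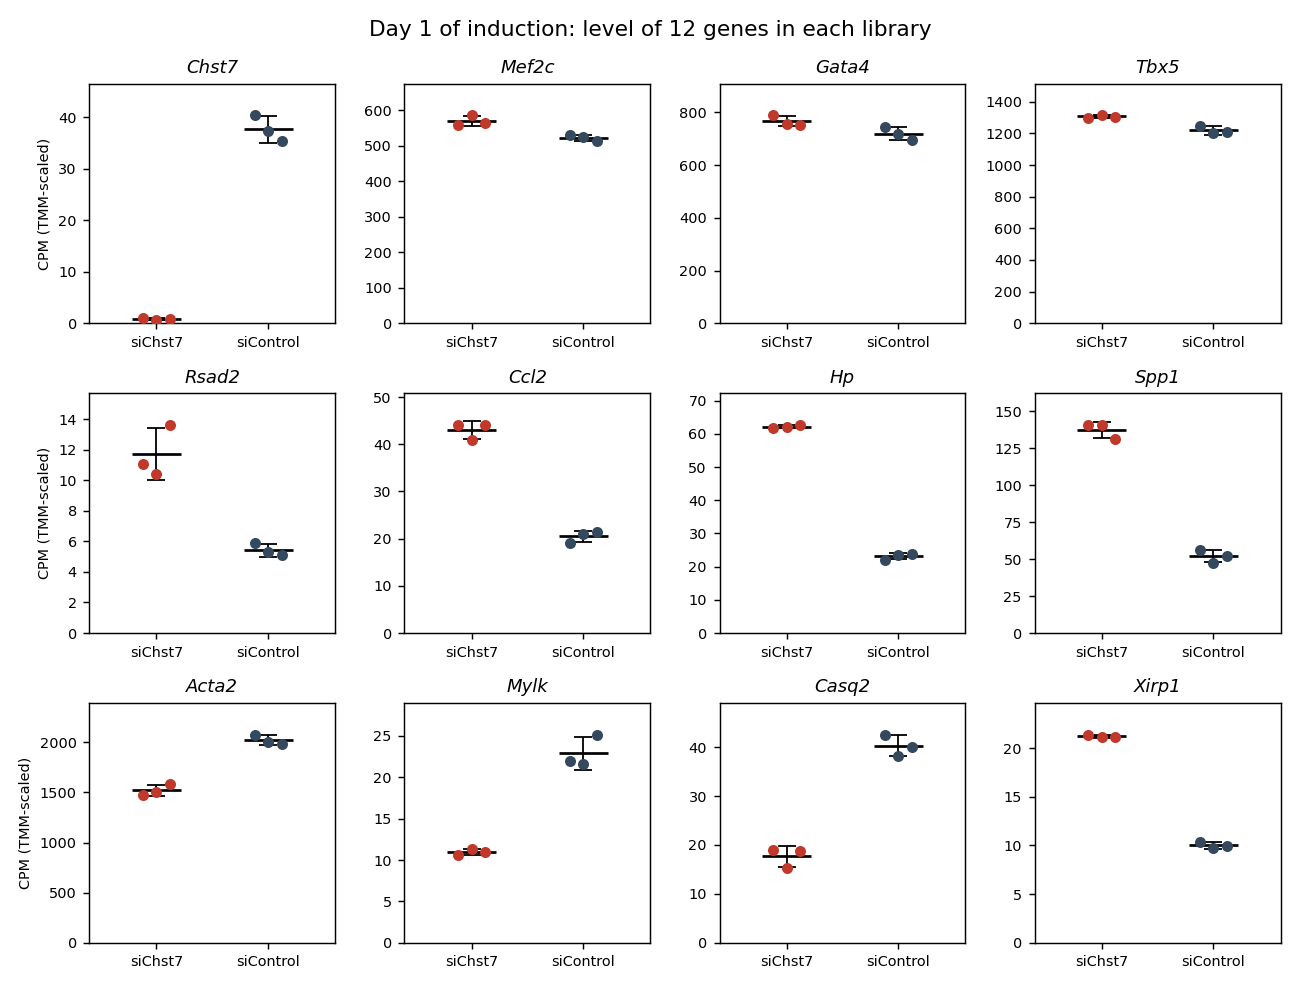
Level of 12 genes in each day 1 library, in CPM scaled by TMM, with siChst7 on the left and siControl on the right of each panel. Points are libraries, horizontal lines are means and bars are SDs (n = 3 per group), and each panel has its own axis from 0. The groups do not overlap in any of the 12 panels, but for Mef2c, Gata4 and Tbx5 the gap is small and edgeR did not call them.

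Most interferon response genes were higher in siChst7 than in siControl cells. Of 54 tested members of the list, 38 were higher and 0 lower in siChst7 cells, where 8.86% of all genes were higher, and 52 had a positive sign. Their median log2FC was 0.41, against 0.01 for all genes, and the called members ranged from 0.21 to 2.04. Rsad2, which encodes the antiviral enzyme viperin, had 11.1, 10.4 and 13.6 CPM in siChst7 and 5.87, 5.29 and 5.09 CPM in siControl libraries (1.11 ± 0.13; edgeR adjusted p = 3.25e-06). Ifit1, whose product binds foreign RNA, had 31.9, 29.8 and 36.0 CPM in siChst7 and 19.7, 19.1 and 21.7 CPM in siControl libraries (0.69 ± 0.11; edgeR adjusted p = 8.71e-05). The highest siControl library lay below the lowest siChst7 library for both. Rtp4, a regulator of interferon signalling, was at 0.78 ± 0.08 and the nucleic acid sensor Zbp1 at 1.16 ± 0.18. Oas2, from the family that activates RNase L, had 13.2, 12.4 and 10.1 CPM in siChst7 and 3.73, 4.63 and 7.07 CPM in siControl libraries, the third siControl library being the highest of its group. The same held over the list: the median deviation of its members from the siControl mean was 0.32, 0.36 and 0.42 in siChst7 and -0.09, -0.03 and 0.14 in siControl libraries on the log2 scale. The count of called members was 25 without siControl replicate 1 and 31 to 40 without any other single day 1 library. Of transcription factors that carry the signal, Stat2 was at 0.21 ± 0.06, Irf9 at 0.26 ± 0.08 and Irf7 at 0.39 ± 0.13. The antiviral tether Bst2, the uncalled member with the highest level, had 148, 134 and 127 CPM in siChst7 and 107, 118 and 132 CPM in siControl libraries, which overlapped (0.20 ± 0.08; edgeR adjusted p = 0.0764). Members of the Oas, Ifit, Gbp and Irgm families resemble each other closely enough that the authors' counting could split reads between them, and their single values are uncertain for that reason.

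Interferon genes themselves were nearly silent. Ifnb1 and Ifng had 0 counts in all 6 libraries, which allows up to 3 counts per library by counting error alone. Of 21 listed interferon genes 12 had no count in any library. The 20 other than Ifnz together had 13 counts in siChst7 and 5 in siControl libraries. Ifnz, from a cluster of near-identical genes, had 18, 8 and 13 counts in siChst7 and 1, 4 and 13 counts in siControl libraries, which overlapped. These genes were looked up after the values of the response genes were known.

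**Figure D3:**
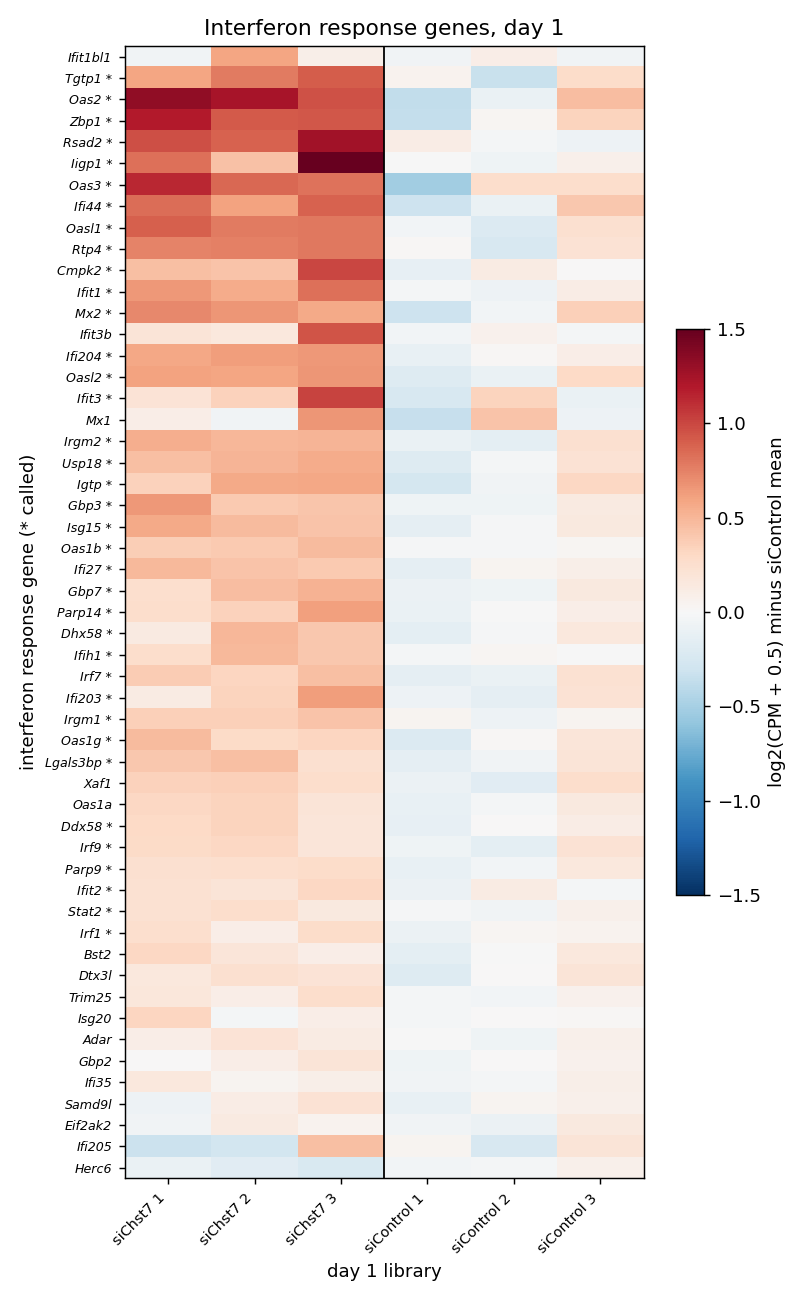
Each row is 1 of 53 tested interferon response genes and each column 1 day 1 library, siChst7 left of the line and siControl right of it. Colour is log2(CPM + 0.5) minus the siControl mean of the gene, and stars mark the 37 called ones among them. The siChst7 columns are red through most of the rows, and the third siControl column is redder than the other siControl columns.

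The element through which interferon-activated factors bind DNA, the interferon-stimulated response element, has a core of 2 copies of GAAA parted by any 2 bases, searched on both strands from 250 bases before to 50 bases after the start of transcription. RefSeq promoter windows were at hand for 40 of the 54 tested members, and 22 of these (55.0%) held the core, as did 319 of 10511 windows of all tested genes (3.03%). Among genes called higher at day 1 the share was 6.06%, and among genes called lower it was 2.12%. Of the 55 windows with the core among genes called higher, 15 were of the interferon list. The share without them was not tested. The members were listed as interferon response genes, so a high share among them is no separate evidence. The upstream 250 bases of 4 called members are shown to place the core, in capitals, within the promoter (GRCm38.p6, 5′ to 3′ on the strand of the gene). They are the members with the smallest p that hold it, picked once their values were known.
Rsad2 (chr12:26456453-26456702, minus strand): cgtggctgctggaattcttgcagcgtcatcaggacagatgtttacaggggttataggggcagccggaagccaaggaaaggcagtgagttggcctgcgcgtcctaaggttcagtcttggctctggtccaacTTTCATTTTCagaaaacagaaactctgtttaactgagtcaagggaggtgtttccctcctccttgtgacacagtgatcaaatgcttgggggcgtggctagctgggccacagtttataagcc
Ifit1 (chr19:34640639-34640888, plus strand): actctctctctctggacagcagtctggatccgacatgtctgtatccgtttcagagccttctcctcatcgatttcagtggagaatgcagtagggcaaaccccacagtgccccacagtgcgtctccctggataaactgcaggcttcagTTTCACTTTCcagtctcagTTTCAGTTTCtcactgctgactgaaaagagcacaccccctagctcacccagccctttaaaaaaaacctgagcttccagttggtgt
Irgm1 (chr11:48871421-48871670, minus strand): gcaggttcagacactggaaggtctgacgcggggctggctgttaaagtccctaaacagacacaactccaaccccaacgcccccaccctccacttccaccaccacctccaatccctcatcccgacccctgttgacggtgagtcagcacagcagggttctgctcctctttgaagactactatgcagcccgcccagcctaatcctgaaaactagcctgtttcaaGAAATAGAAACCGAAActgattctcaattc
Gbp3 (chr3:142559794-142560043, plus strand): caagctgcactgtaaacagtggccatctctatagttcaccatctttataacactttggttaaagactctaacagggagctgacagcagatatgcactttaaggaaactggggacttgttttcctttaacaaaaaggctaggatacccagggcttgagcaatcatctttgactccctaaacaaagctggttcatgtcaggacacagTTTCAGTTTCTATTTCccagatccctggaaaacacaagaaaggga
In Rsad2 1 core ended 110 bases before the start. Ifit1 held 2 cores, the nearer ending 75 bases before the start. In Irgm1 and Gbp3 2 overlapping cores ended 14 and 29 bases before the start. Irgm1 was at 0.38 ± 0.07 and Gbp3 at 0.50 ± 0.09 at day 1. A match in these letters is no evidence of binding.

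Genes of antigen presentation by MHC class I, which interferon also induces, rose in 8 of 17 cases and fell in 0. Among all tested genes 8.86% rose and 8.72% fell. H2-T23, a non-classical class I gene, was at 0.72 ± 0.10, the peptide-loading gene Tapbp at 0.33 ± 0.05 and H2-K1 at 0.27 ± 0.05. B2m, the shared light chain, was not called (818, 862 and 854 CPM in siChst7 and 734, 813 and 817 CPM in siControl libraries; edgeR adjusted p = 0.631). The count was 5 without siChst7 replicate 1, siControl replicate 1 or siControl replicate 3. Class I genes share long stretches of sequence and are uncertain as single genes.

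Inflammatory mediators moved mostly upward, where 8.86% of all genes were higher and 8.72% lower. Of 16 chemokine genes 5 were higher and 2 lower, of 23 genes of cytokines and prostaglandin synthesis 8 were higher and 1 lower, and of 16 acute phase and complement genes 6 were higher and 1 lower. The 2 lower chemokines became 1 without siChst7 replicate 1 or 2 or siControl replicate 1 or 3, and the 1 lower acute phase gene became 0 without any single day 1 library other than siChst7 replicate 2. Ccl2, the main monocyte attractant of fibroblasts, had 44.1, 40.9 and 44.0 CPM in siChst7 and 19.1, 21.0 and 21.4 CPM in siControl libraries, the groups lying well apart (1.07 ± 0.13; edgeR adjusted p = 2.98e-06). Its neighbour Ccl7 was at 0.66 ± 0.12, and the interferon-induced Cxcl10, a low gene, had 3.43, 3.00 and 4.63 CPM in siChst7 and 1.57, 0.891 and 0.669 CPM in siControl libraries (1.82 ± 0.29). Ptgs2, the inducible cyclooxygenase, had 125, 136 and 131 CPM in siChst7 and 75.7, 87.7 and 84.3 CPM in siControl libraries (0.66 ± 0.06; edgeR adjusted p = 5.08e-08). Complement C3 was at 0.56 ± 0.05, the serum amyloid Saa3 at 0.78 ± 0.10 and the iron-sequestering lipocalin Lcn2 at 1.64 ± 0.24. The macrophage growth factor Csf1 went the other way, with 416, 421 and 410.0 CPM in siChst7 and 543, 544 and 514 CPM in siControl libraries (-0.36 ± 0.04). Of 19 genes of NF-kappaB and its feedback inhibitors 4 were higher and 2 lower, with Nfkbia at 0.21 ± 0.04 and Tnfaip3 at 0.36 ± 0.08. The 2 lower became 1 with a replicate block and without any single day 1 library other than siChst7 replicate 2. Markers of macrophages and leukocytes moved with these genes: 3 of 5 tested were higher (Cd14, Itgam and Cd68). The call on Cd68 was lost with a replicate block (edgeR adjusted p = 0.0894), with the spread taken from the 6 day 1 libraries alone (edgeR adjusted p = 0.0564) and without any single day 1 library other than siControl replicate 1. That on Itgam was lost without siChst7 replicate 1, and that on Cd14 without siControl replicate 1. For these markers, the summed level of all 10 was 24.0 to 25.3 CPM in siChst7 and 18.7 to 21.4 CPM in siControl. In both groups 6 of the 10 lay under 1 CPM, among them Ptprc, and Adgre1 and Tyrobp were at 0. The part of these markers in the result was not tested. In pooled cells, fewer cells of a type and less RNA per cell cannot be told apart.

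Contractile genes of smooth muscle and activated fibroblasts that changed were all lower. Of 17 tested members 7 were lower and 0 higher, where 8.72% of all genes were lower, with a median log2FC of -0.23. Acta2, the smooth muscle actin that marks myofibroblasts, had 1478, 1505 and 1582 CPM in siChst7 and 2077, 2006 and 1986 CPM in siControl libraries, and the groups were well apart (-0.41 ± 0.06; edgeR adjusted p = 4.18e-05). Mylk, the kinase that starts smooth muscle contraction, had 10.6, 11.4 and 11.0 CPM in siChst7 and 21.9, 21.6 and 25.2 CPM in siControl libraries, which lie well apart (-1.06 ± 0.08; edgeR adjusted p = 5.34e-09). The enteric actin Actg2 was at -0.85 ± 0.11, the actin nucleator Lmod1 at -0.84 ± 0.17 and the adhesion protein Vcl at -0.23 ± 0.04. Tpm1, the member with the highest level that was not called, was at -0.08 ± 0.04 (edgeR adjusted p = 0.18). The count of 7 was also found without each of the 6 day 1 libraries in turn. The wider list of SRF and actin dynamics genes had 2 of 21 lower and 0 higher, a share near that of all genes. It was 7 lower with the spread taken from the 6 day 1 libraries alone.

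TGF-beta genes that changed were mostly higher. Of 22 tested, 6 were higher and 1 lower, where 8.86% of all genes were higher and 8.72% lower. The ligand Tgfb3 had 343, 323 and 363 CPM in siChst7 and 244, 233 and 231 CPM in siControl libraries (0.54 ± 0.05; edgeR adjusted p = 6.32e-08), and the latency protein Ltbp1 was at 0.36 ± 0.05. Of the targets, the feedback inhibitor Pmepa1 had 229, 229 and 234 CPM in siChst7 and 176, 171 and 168 CPM in siControl libraries (0.43 ± 0.06; edgeR adjusted p = 7.62e-06). For these 3 genes all siChst7 libraries lay above all siControl libraries. The ligand Tgfb2 was at -0.19 ± 0.05, in the other direction. Of 15 Hippo pathway genes 2 were higher and 1 lower, with Ankrd1 at 0.36 ± 0.05 and Amotl2 at -0.36 ± 0.05, both well-known targets of YAP. The 2 higher became 1 without siControl replicate 3, and the Hippo counts lay near the shares of all genes. In the promoter windows, GGAATG, the core bound by the TEAD partners of YAP, was found in 8 of 14 contractile genes (57.1%). It was found in 12.2% of all tested genes and in 13.1% of those called lower. The SRF site known as the CArG box was found in 2 of 14 (14.3%), in 1.38% of all tested genes and in 1.48% of those called lower. The 14 include members that were not called, and a part of either site in the changes was not tested.

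The delivered factors were not called. Mef2c had 559.7, 587 and 565 CPM in siChst7 and 531, 524 and 514 CPM in siControl libraries (0.13 ± 0.05; edgeR adjusted p = 0.068). Gata4 had 791, 757 and 753 CPM in siChst7 and 745, 717 and 696 CPM in siControl libraries (0.09 ± 0.05; edgeR adjusted p = 0.234). Tbx5 had 1299, 1317 and 1305 CPM in siChst7 and 1249, 1200.0 and 1208 CPM in siControl libraries (0.10 ± 0.05; edgeR adjusted p = 0.156). For each, all 3 siChst7 libraries lay above all 3 siControl libraries by a few percent. With the spread taken from the 6 day 1 libraries alone, all 3 were called higher, and Mef2c also without the low-count filter and without the 6 day 3 libraries. Counts per gene do not separate the delivered copies from those of the cell.

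Heart muscle genes moved in both directions, where 8.86% of all genes were called higher and 8.72% lower. Casq2, the calcium store protein of the cardiac sarcoplasmic reticulum, was lower, with 19.0, 15.3 and 18.8 CPM in siChst7 and 42.6, 38.3 and 39.9 CPM in siControl libraries (-1.19 ± 0.08; edgeR adjusted p = 4.58e-10). Of 21 calcium handling and ion channel genes 4 were lower and 2 higher: the junctional proteins Jph2 (-0.48 ± 0.09) and Asph (-0.25 ± 0.04) were lower, and the inward rectifier channel Kcnj2 (0.70 ± 0.11) was higher. Of 24 Z-disc and M-band genes 6 were higher and 3 lower. Xirp1, an actin-binding protein of cell junctions in the heart, had 21.4, 21.1 and 21.1 CPM in siChst7 and 10.4, 9.71 and 9.94 CPM in siControl libraries (1.08 ± 0.10; edgeR adjusted p = 4.60e-08). The small heat shock gene Hspb7 was at 0.99 ± 0.10, while the M-band protein Myom2 was at -0.55 ± 0.07. Of 16 thin filament genes 3 were higher and 2 lower, the 2 becoming 1 with a replicate block and without siChst7 replicate 2 or 3 or siControl replicate 1 or 3. Cardiac troponin T, Tnnt2, had 122, 96.3 and 114 CPM in siChst7 and 84.4, 89.6 and 84.6 CPM in siControl libraries (0.36 ± 0.07; edgeR adjusted p = 0.000732), and the troponin C gene Tnnc1 was at 0.53 ± 0.13. Of 10 striated myosin genes 1 was lower (2 with a replicate block) and 0 higher. Of 14 cardiac transcription factors other than the delivered ones 1 was higher and 0 lower. The myosin and transcription factor counts lay near the shares of all genes. Of 10 muscle energy enzymes 3 were higher and 1 lower. The rises were in the creatine kinase Ckb (0.59 ± 0.10), the fatty acid carrier Fabp3 (0.56 ± 0.15) and the muscle subunit of cytochrome oxidase Cox6a2 (0.94 ± 0.26), and the 3 became 1 without siControl replicate 1. The muscle enolase Eno3 was lower, at 209.9, 214 and 212 CPM in siChst7 and 333, 326 and 316 CPM in siControl libraries (-0.62 ± 0.04; edgeR adjusted p = 8.61e-11). Acta1, a skeletal muscle marker that heart also expresses, was higher (0.41 ± 0.10), and the other 7 markers of that lineage lay under 1 CPM.

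**Figure D4:**
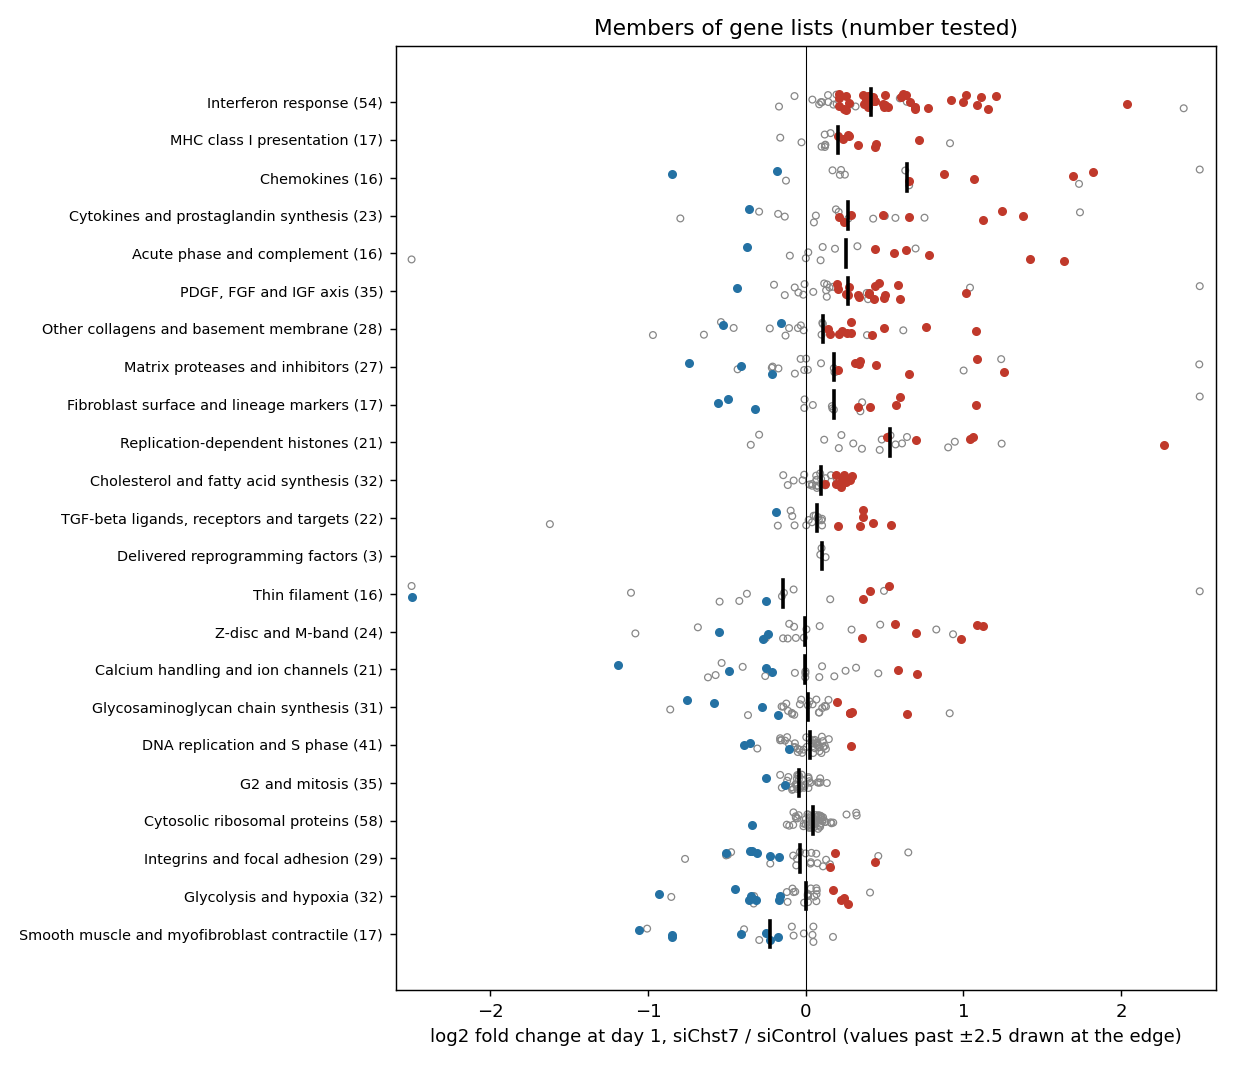
Log2 fold change at day 1 of each tested member of 23 gene lists, siChst7 over siControl. Filled points were called higher (red) or lower (blue) by edgeR, open points were not called, black bars are list medians, and numbers in brackets are members tested. Interferon response genes lie almost wholly to the right, contractile genes mostly to the left, and ribosomal, mitotic and replication genes near 0.

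Genes of a list of the PDGF, FGF and IGF axis and other growth factors rose in 17 of 35 cases. They fell in 1 (Fgfr3, -0.43), with a median log2FC of 0.27. Vegfa, Vegfc, Ereg, Nrg1 and Hbegf lie outside that axis, and the counts include them. For comparison, 8.86% of all genes were higher and 8.72% lower. Many of these ligands and their receptors bind sulfated chains or depend on them. The ligand Pdgfb had 23.6, 18.2 and 20.9 CPM in siChst7 and 10.6, 10.1 and 10.3 CPM in siControl libraries (1.02 ± 0.08; edgeR adjusted p = 1.10e-08). Its receptor Pdgfrb had 95.7, 99.1 and 95.3 CPM in siChst7 and 63.1, 64.9 and 63.4 CPM in siControl libraries (0.60 ± 0.04; edgeR adjusted p = 7.65e-10). For both, all siChst7 libraries lay above all siControl libraries. Among the other ligands, Pdgfa (0.26), Fgf7 (0.33), Fgf10 (0.47), Vegfa (0.27), Vegfc (0.44), Ereg (0.28) and Nrg1 (0.40) were called higher. So were 3 IGF-binding proteins, Igfbp3 (0.49), Igfbp4 (0.40) and Igfbp7 (0.58), and the feedback inhibitors of receptor signalling Spry2 (0.44), Spry4 (0.50) and Spred1 (0.20). Hbegf was not called (0.13 ± 0.05; edgeR adjusted p = 0.069). Of 27 AP-1 and immediate early genes 6 were higher and 2 lower, such as the growth-induced Egr2 at 0.79 ± 0.09 and the phosphatase Dusp6 at 0.31 ± 0.05, against Klf2 at -0.61 ± 0.07. That count of 6 was 3 without siChst7 replicate 1 or 2 and 2 without siControl replicate 3, and that of 2 was 1 without siChst7 replicate 2 or siControl replicate 1 or 2.

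Fibroblast markers and matrix genes were divided, where 8.86% of all genes were higher and 8.72% lower. Vim, the intermediate filament of mesenchymal cells, had 7450.3, 7279 and 7514 CPM in siChst7 and 9359, 9294 and 9179 CPM in siControl libraries (-0.32 ± 0.04; edgeR adjusted p = 4.75e-06). Of 17 surface and lineage markers 5 were higher and 3 lower, Pdgfrb, the mucin-like Pdpn (0.41 ± 0.06) and the ecto-nucleotidase Nt5e (0.58 ± 0.09) among the rises, and the collagen receptor Ddr2 was not called (0.05 ± 0.04; edgeR adjusted p = 0.455). Of 10 fibrillar collagen genes Col1a2 alone was called higher, at 1208, 1194 and 1174 CPM in siChst7 and 861, 824 and 811 CPM in siControl libraries (0.52 ± 0.05; edgeR adjusted p = 1.39e-07). Its partner chain Col1a1 was at -0.06 ± 0.06, with groups that overlapped (edgeR adjusted p = 0.51). Of 28 other collagens and basement membrane genes 11 were higher and 2 lower, with Col6a3 at 0.76 ± 0.09, Col14a1 at 1.08 ± 0.26, Col18a1 at 0.49 ± 0.08 and the laminin chain Lamb1 at 0.29 ± 0.04. The 2 lower became 1 without siChst7 replicate 2 or siControl replicate 1. The basement membrane linker Nid2 was lower, at 1769, 1692 and 1764 CPM in siChst7 and 2583, 2482 and 2455 CPM in siControl libraries (-0.53 ± 0.05; edgeR adjusted p = 6.10e-08). The collagen cross-linking enzyme Lox was also lower (-0.54 ± 0.04). Of 27 proteases and inhibitors of the matrix 8 were higher and 3 lower. The stromelysin Mmp3 averaged 42.1 ± 3.38 CPM in siChst7 and 19.9 ± 1.88 CPM in siControl libraries (SD, n = 3 each; 1.08 ± 0.07; edgeR adjusted p = 5.78e-10), the protease inhibitor Serpine2 was at 0.66 ± 0.04, and Adamts5, which cleaves the chondroitin sulfate proteoglycans aggrecan and versican, was at -0.74 ± 0.04. Of 29 integrin and focal adhesion genes 6 were lower and 3 higher, the 3 becoming 1 without siChst7 replicate 2.

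The carriers and builders of sulfated chains changed in both directions. Of 20 proteoglycan core genes 4 were higher and 2 lower, where 8.86% of all genes were higher and 8.72% lower. Decorin, Dcn, which carries a single chondroitin or dermatan sulfate chain, had 61.9, 66.4 and 58.1 CPM in siChst7 and 41.8, 41.4 and 41.8 CPM in siControl libraries (0.58 ± 0.11; edgeR adjusted p = 0.000642). Its relative Bgn was at 0.17 ± 0.05, the heparan sulfate carrier Gpc1 at 0.20 ± 0.05 and Gpc4 at -0.33 ± 0.06. The count of 4 was 2 without siChst7 replicate 2, and that of 2 was 1 with a replicate block and without siChst7 replicate 1 or 3 or siControl replicate 1 or 3. Of 31 genes of chain synthesis 5 were higher and 4 lower. B4galt7, which adds the first galactose of the linker, was lower, at 13.3, 15.4 and 14.6 CPM in siChst7 and 21.5, 21.8 and 21.7 CPM in siControl libraries (-0.58 ± 0.07; edgeR adjusted p = 5.50e-06). Dse, the epimerase that turns chondroitin into dermatan sulfate, was at -0.28 ± 0.04. The chondroitin synthase Chsy1 (0.28 ± 0.04) and the heparan N-sulfotransferase Ndst1 (0.30 ± 0.05) were higher.

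Lists of sugar, fatty acid oxidation and antioxidant genes had calls in both directions, and that of cholesterol and fatty acid synthesis in 1 alone. Of 32 cholesterol and fatty acid synthesis genes 9 were higher and 0 lower, where 8.86% of all genes were higher and 8.72% lower. The rises were of 0.12 to 0.29, for example the desaturase Scd1 at 0.26 ± 0.05 and the squalene synthase Fdft1 at 0.29 ± 0.07. That count was 4 without siChst7 replicate 2 and 5 without siControl replicate 3. Of 32 glycolysis and hypoxia genes 7 were lower and 4 higher, with the pyruvate dehydrogenase kinase Pdk1 at 5.80, 4.98 and 6.33 CPM in siChst7 and 10.4, 11.8 and 10.4 CPM in siControl libraries (-0.93 ± 0.11; edgeR adjusted p = 1.52e-06) and the phosphofructokinase Pfkl at -0.36 ± 0.05. The 7 became 4 without siControl replicate 1. Acadm, which starts the oxidation of medium-chain fatty acids, averaged 38.1 ± 2.88 CPM in siChst7 and 74.3 ± 3.19 CPM in siControl libraries (SD, n = 3 each; -0.96 ± 0.06; edgeR adjusted p = 6.41e-10), within a list of 30 oxidation genes of which 5 were higher and 4 lower. The 4 became 2 with a replicate block and without any 1 of the 3 siChst7 libraries or siControl replicate 3. Of 25 NRF2 and antioxidant genes 3 were higher and 3 lower. Gclm, a subunit of the enzyme that starts glutathione synthesis, was lower (-0.67 ± 0.06), as was the glutathione reductase Gsr (-0.22 ± 0.05). The glutathione synthetase Gss (0.22 ± 0.05) and the haem oxygenase Hmox1 (0.15 ± 0.04) were higher. The 3 higher became 1 without siChst7 replicate 2 or siControl replicate 1 or 3. Of 58 ribosomal protein genes 1 was lower and 0 higher, of 36 respiratory chain genes 1 was higher and 1 lower, of 41 replication genes 1 was higher and 3 lower, and of 35 mitotic genes 0 were higher and 2 lower. These shares of called genes lie under those of all genes, but several shares of genes whose groups did not overlap lie above. The 2 groups of libraries were apart, upward and downward, in 23 and 8 ribosomal, 11 and 1 respiratory, 14 and 10 replication and 5 and 10 mitotic genes, against 21.3% upward and 18.1% downward of all genes. The 2 mitotic genes became 1 without any single day 1 library and with a replicate block, and the 1 higher respiratory gene became 0 without any single day 1 library other than siChst7 replicate 1. With the spread taken from the 6 day 1 libraries alone, 17 ribosomal protein genes were called higher and 6 lower, 5 and 1 respiratory, 8 and 9 replication and 2 and 7 mitotic genes. Replication-dependent histones were higher in 5 of 21 cases and lower in 0, with Hist1h1c at 0.52 ± 0.06. Their messages mostly lack a poly-A tail and resemble each other, and the count was 3 without siChst7 replicate 1 or siControl replicate 2.

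Part of the response differed from that of the other days. The siChst7 effect at day 1 differed from that at day 0 in 1615 genes (11.7% of those tested, 6.2% upward and 5.5% downward) and from that at day 3 in 3926 genes (28.4%, 13.1% upward and 15.3% downward), by edgeR tests of the difference itself. Which direction held more calls depended on the scaling. Against day 0, 53% of the calls were upward with TMM and 30.2% when scaled by library totals. Against day 3, 46.2% were upward with TMM and 55.2% with DESeq2 size factors. Days 0, 1 and 3 share no library, but both differences use the day 1 libraries. The days differ in time since transfection and time in culture as well as in doxycycline. No group of day 1 or day 3 went without doxycycline, so these cannot be told apart. The siChst7 libraries of day 3 were the least alike, their pairwise chi-square statistics being 21.2 to 55.3 times the degrees of freedom, and gene length went with their difference from siControl at a rank correlation of -0.35 to -0.27 across genes. Of the siChst7 libraries of day 0, replicate 3 stood apart, its chi-square statistics against replicates 1 and 2 being 14.8 and 14.5 times the degrees of freedom, where that between replicates 1 and 2 was 3.61 times. Its rank correlation with gene length was 0.24, against -0.046 and -0.036 in the other 2. The part of these libraries in the differences between days was not tested beyond leaving each out.

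The interferon rise, that of siChst7 over siControl, was not seen before doxycycline. The levels themselves fell from day 0 to day 1 in both groups for Rsad2 and Ifit1, less so in siChst7. Rsad2 had 20.7, 26.3 and 27.4 CPM in siChst7 and 25.1, 26.6 and 25.3 CPM in siControl libraries on day 0. Ifit1 had 50.3, 53.3 and 55.7 CPM in siChst7 and 63.3, 64.4 and 61.4 CPM in siControl libraries that day. For Oas2 and Bst2 the siChst7 libraries of days 0 and 1 overlapped. These changes in level were not tested. Of the 54 tested members 2 were higher and 5 lower at day 0, with a median log2FC of -0.10. At day 3, 45 were higher and 0 lower, with a median of 0.79. Of all 13802 tested genes, 1916 were higher and 1869 lower at day 0, and 3182 and 2983 at day 3. The effect at day 1 was above that at day 0 in 28 members and below it in 0, and it was below that at day 3 in 15 and above it in 0. Without siChst7 replicate 3 of day 0, 1 was higher and 8 lower on that day and 33 differed upward from day 0. The 5 lower at day 0 were 3 without siChst7 replicate 1 or 2 or siControl replicate 1 and 2 without siControl replicate 2, and the 2 higher were 1 without siChst7 replicate 1 or any 1 siControl library. Ifit1 was at -0.25 ± 0.10 at day 0, 0.69 ± 0.11 at day 1 and 1.27 ± 0.11 at day 3, with a difference between day 1 and day 0 of 0.94 ± 0.15 (edgeR adjusted p = 0.000114). For Rsad2 the day 1 effect minus the day 3 effect was 0.02 ± 0.21 (edgeR adjusted p = 0.946), so the 2 effects were not told apart.

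Contractile genes showed a deficit on day 0 that had shrunk by day 1. Of 17 members 12 were lower and 0 higher at day 0, with a median of -0.64, where 1869 of all 13802 tested genes were lower. The effect at day 1 was above that at day 0 in 10 members and below it in 1, against 6.2% and 5.5% of all genes. The counts were also 10 and 1 without siChst7 replicate 3 of day 0, and 10 and 2 without siControl replicate 1 of that day. Acta2 was at -1.47 ± 0.06 at day 0, -0.41 ± 0.06 at day 1 and 0.20 ± 0.06 at day 3, and its day 1 effect exceeded that of day 0 by 1.06 ± 0.09 (edgeR adjusted p = 2.09e-08). Mylk was the exception, at 0.29 ± 0.12 on day 0 and -1.06 ± 0.08 on day 1 (difference -1.35 ± 0.14; edgeR adjusted p = 1.05e-06). Among TGF-beta genes 13 of 22 differed from day 0, 10 of them upward. Ltbp1 was at -0.15 ± 0.04 on day 0 and 0.36 ± 0.05 on day 1, a change of sign (difference 0.51 ± 0.06; edgeR adjusted p = 7.31e-06). Tnfsf15 also changed sign, at -1.29 ± 0.18 on day 0 and 1.38 ± 0.11 on day 1 (difference 2.67 ± 0.21; edgeR adjusted p = 1.48e-08).

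Of the list of the PDGF, FGF and IGF axis and other growth factors, 11 were higher and 6 lower at day 0. The counts were 17 and 1 at day 1, and 8 and 7 at day 3. The 6 became 3 without siChst7 replicate 1 of day 0, and the 8 became 5 without siChst7 replicate 3 or siControl replicate 2 of day 3. Of all 13802 tested genes, 1916 were higher and 1869 lower at day 0, and 3182 and 2983 at day 3. The shares of that list at day 3 lay near those of all genes. Pdgfb was at 0.19 ± 0.14, 1.02 ± 0.08 and 0.05 ± 0.07 on days 0, 1 and 3, and its day 1 effect exceeded that of day 0 by 0.83 ± 0.16 (edgeR adjusted p = 0.00151) and that of day 3 by 0.96 ± 0.11 (edgeR adjusted p = 7.76e-06). Alcam was at 1.31 ± 0.06, 1.24 ± 0.06 and 0.07 ± 0.07 on the same days. Casq2 was at -0.19 ± 0.06 on day 3, when it had 267.7 to 297.9 CPM in siChst7 and 317.7 to 335.7 CPM in siControl libraries, and its day 1 effect minus that of day 3 was -1.00 ± 0.10 (edgeR adjusted p = 2.15e-06). On day 0 it was nearly silent in both groups, under 0.1 CPM. For the delivered factors the day 1 effect lay above that of day 3, by 0.50 ± 0.07 for Mef2c, 0.45 ± 0.07 for Gata4 and 0.43 ± 0.07 for Tbx5 (edgeR adjusted p = 3.44e-05, 0.000166 and 0.000123). All 3 were called lower at day 3, with a median log2FC of -0.36. Mef2c had 249.6, 265.6 and 230.9 CPM in siChst7 and 326.2, 321.4 and 319.6 CPM in siControl libraries that day. Against day 0, Tbx5 alone differed, upward. That call was lost when scaled by library totals, with a replicate block and without several single libraries.

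**Figure D5:**
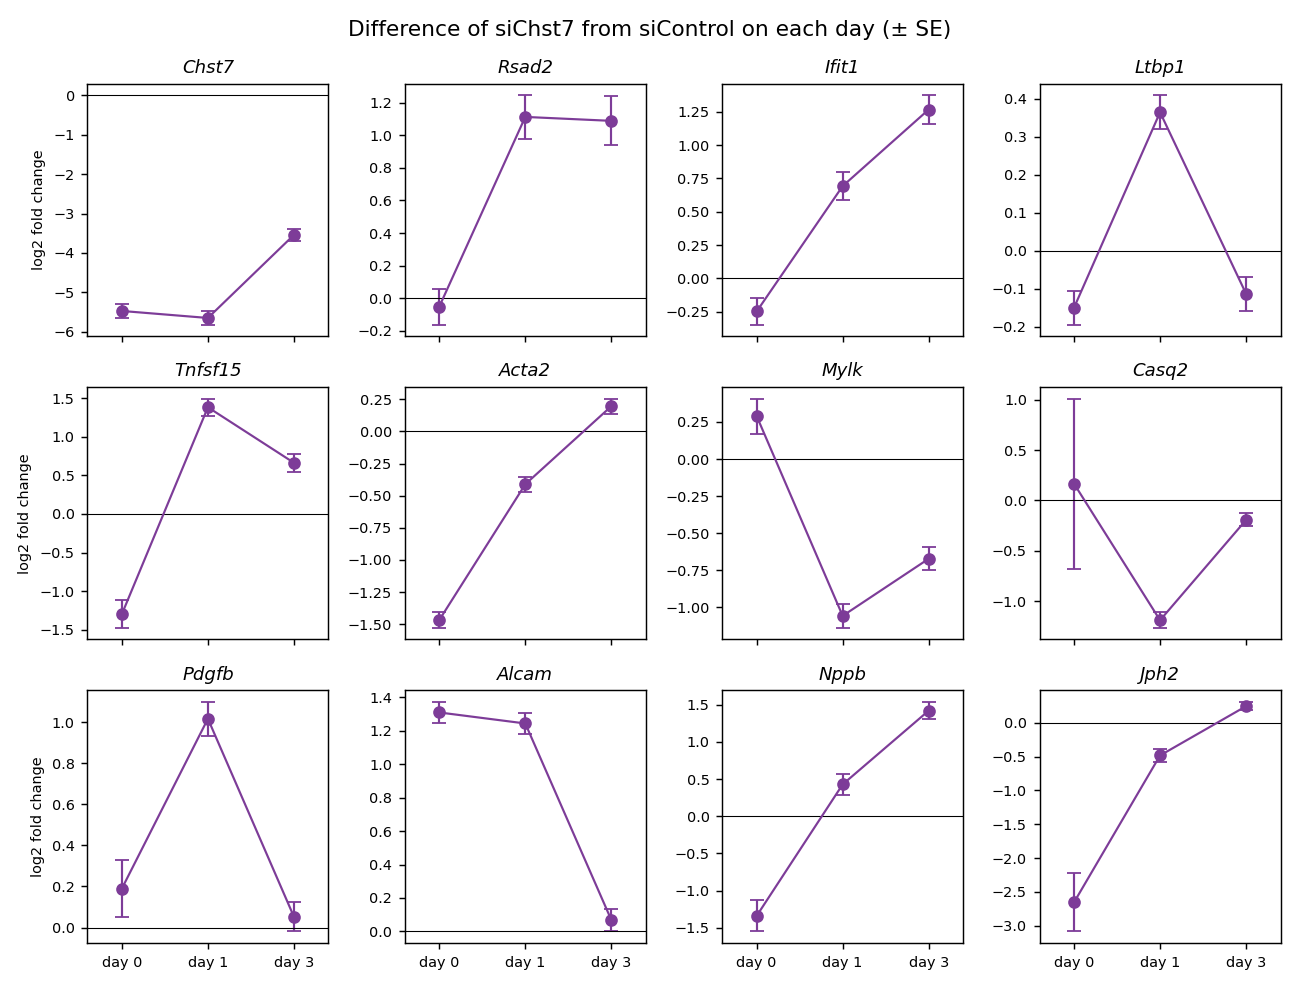
Log2 fold change of siChst7 over siControl on days 0, 1 and 3 of induction for 12 genes, from 1 edgeR fit to all 18 libraries. Points are estimates, bars are SEs (n = 3 per group and day), and each panel has its own vertical axis. Rsad2 and Ifit1 are near 0 on day 0 and above it on day 1, Acta2 moves toward 0 from -1.47, and Pdgfb is called on day 1 alone of the 3 days.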

How the data were processed

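The deposited table holds raw whole-number read counts per gene, which the authors made with HISAT2, Subread featureCounts and the mm10 genome, per the submitters' processing notes. Their versions, the annotation, the strand setting and the handling of multiply mapped reads were not given in the sources used here. All 18 libraries, in 6 groups of 3, were fitted together in edgeR 4.0.16 (R 4.3.3) by its quasi-likelihood test, with TMM scaling, its default filter on low counts (13802 of 24514 genes kept) and Benjamini-Hochberg adjustment, two-sided, with calls at 0.05. The fit had 12 residual degrees of freedom and a biological coefficient of variation of 5.75%. A simulation on the same 13802 genes recovered 96 of 100 genes changed 1.5-fold and 100 of 100 changed 2-fold, with 13 false calls. In the real libraries the replicate spread was uneven. Pairwise chi-square statistics were 2.92 to 3.49 times the degrees of freedom in siControl at day 1 and 21.2 to 55.3 times in siChst7 at day 3. How far the simulated recovery and false calls hold under such spread was not tested. In the table, 25 gene symbols had turned into dates and were not named. Symbols matched RefSeq GRCm38.p6 in 96.2% of cases, and promoters and positions come from it. The members and gene lists were chosen with earlier results of these data known. The genes named are Chst7, the delivered factors, the 12 called genes of at least 5 CPM with the largest change each way (predicted genes and genes with overlapping groups left out), the 6 largest differences between days each way, and, of each list with at least 3 called members, up to 4 called members by smallest p and the uncalled one of highest level. Genes named beyond this, such as Stat2, Irf7, Irf9, Irgm1, Gbp3 and the further growth factors, were added after their values were seen. A few genes that this rule names are not reported here. Replicate numbers did not pair samples: deviations of same-numbered siChst7 and siControl libraries correlated at 0.0021, 0.017 and 0.0076.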

Additional observations from a re-analysis of the deposited data

Results flagged for a closer look

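The following effects of siChst7 at day 1 differed from those at another day, by an edgeR test of the difference itself. Values are the day 1 log2FC minus that of the other day.

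Against day 0, the effect differed in 28 of 54 interferon response genes, 11 of 17 contractile genes and 13 of 22 TGF-beta genes. It also differed in 14 of 35 genes of the PDGF, FGF and IGF axis and other growth factors, and in 11.7% of all tested genes. The genes with the largest differences upward were Xirp2 (5.05), Tnfsf15 (2.67), Jph2 (2.17), Mustn1 (2.14), Nppb (1.77) and Serpinb9g (1.43), and downward Cldn23 (-2.01), Csdc2 (-1.76), Ism1 (-1.65), Mylk (-1.35), Nr4a3 (-1.25) and Angpt1 (-1.22). Several were hardly expressed on day 0. Xirp2, an actin-binding gene of striated muscle, had 0 CPM in all 3 siChst7 and 0.138, 0.0443 and 0 CPM in siControl libraries that day, so its fitted difference is no bound. Its call was lost without any 1 siChst7 library of day 0 and without siControl replicate 1 of that day (3.73; edgeR adjusted p = 0.204). The calls on Mustn1 and Serpinb9g were lost without siChst7 replicate 1 or siControl replicate 1 of day 0, that on Serpinb9g also without siControl replicate 2, and that on Csdc2 without siChst7 replicate 3. Jph2 had 0.0793, 0.0453 and 0.0465 CPM in siChst7 and 0.254, 0.354 and 0.535 CPM in siControl libraries on day 0. Mustn1, Csdc2, Cldn23 and Serpinb9g lay under 1.1 CPM in each day 0 library. Ism1 was also low in siControl libraries on day 0. It was at 39.4, 39.5 and 41.8 CPM in siChst7 and 52.9, 50.7 and 52.1 CPM in siControl libraries on day 1, and at 1.92, 1.9 and 2.67 CPM in siChst7 and 0.761, 0.908 and 0.981 CPM in siControl libraries on day 0.

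Against day 3, the effect differed in 15 of 54 interferon response genes, a share near the 28.4% of all tested genes. All 15 lay below day 3, as did 15.3% of all tested genes. It differed in 9 of 17 contractile and 12 of 22 TGF-beta genes. It differed in 13 of 35 genes of the PDGF, FGF and IGF axis and other growth factors. It also differed in 24 of 36 respiratory chain and 46 of 58 ribosomal protein genes. In all 46 the day 1 effect lay below that of day 3. Of the 58 ribosomal genes, 49 were called higher and 1 lower at day 3 (median log2FC 0.69). At day 1, 0 were called higher and 1 lower (median 0.05). Single genes were Acacb (1.24), Alcam (1.18), Thbs2 (1.04), Pdgfb (0.96), Abcb4 (0.96) and Maml3 (0.91) upward, and Chst7 (-2.10), Npas4 (-1.53), Wbp5 (-1.49), Snhg3 (-1.46), Actg2 (-1.46) and Rpl39 (-1.45) downward. The siChst7 libraries of day 3 stood apart from siControl in gene length trend, at -0.35 to -0.27, and the ribosomal RNA precursor held 0.605% to 1.96% of their counts, against 0.399% to 0.542% in siControl. The part of these in the day 3 differences was not tested.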

How the results depend on the processing

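No log2FC of a named gene changed sign under any alternative run. The direction that held more calls did change, at day 1 and for both differences between days. At day 1, 1223 genes were higher and 1203 lower with TMM, against 1161 and 1205 with DESeq2 size factors. Leaving out 1 day 1 library at a time gave 885 to 981 genes higher and 906 to 955 lower, 85 to 102 higher and 18 to 39 lower by at least 2-fold (18 without siControl replicate 3), and a Chst7 log2FC of -5.84 to -5.48. With the spread taken from the 6 day 1 libraries alone, 1979 genes were higher and 1945 lower. DESeq2 called 1301 higher and 1343 lower. With at least 5 CPM in 3 libraries, 48 genes were higher and 14 lower by at least 2-fold, since fewer genes were tested. The difference from day 0 gave 522 higher and 1206 lower when scaled by library totals (30.2% higher, against 53% with TMM), and 1299 and 1149 without the 6 day 3 libraries, an alternative added after seeing the data. Leaving out 1 library gave 660 to 850 higher and 559 to 691 lower for that difference. For the difference from day 3 it gave 1390 to 2641 higher and 1458 to 2939 lower, the highest counts coming without siChst7 day 3 replicate 2. Of the calls against day 0, 46.4% were higher with upper quartile scaling and 49.9% with the stricter filter. Of those against day 3, 46.2% were higher with TMM, 55.2% with DESeq2 size factors, 53.7% with library totals, 57.2% with no filter on low counts, 53.6% with the stricter filter, 55.3% in DESeq2 and 54.9% without siChst7 day 3 replicate 3. A replicate block within day gave 1103 higher and 1074 lower at day 1, 727 and 622 against day 0, 1594 and 1958 against day 3, and -5.65 for Chst7. Among single genes, 18 calls were lost and 45 gained over the alternatives that did not leave out a single library. These include the fits to the 6 day 1 libraries alone and without the 6 day 3 libraries, which gave most of the gains. In leaving out a single library, 92 calls were lost and 4 gained. The cause was not tested. Depth limits genes near 1 CPM, such as Chst10 and Col14a1.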

Other observations

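Lists of developmental and stress pathways mostly had calls in both directions at day 1, when 8.86% of all genes were higher and 8.72% lower. Of 22 Wnt targets and modulators 6 were higher and 2 lower (3 higher without siControl replicate 3), of 23 BMP genes 3 were higher and 4 lower, of 15 Notch genes 2 were higher and 3 lower, and of 24 HOX genes 0 were higher and 4 lower. The ligand Bmp4 had 2.88, 3.00 and 2.36 CPM in siChst7 and 4.21, 5.52 and 4.25 CPM in siControl libraries (-0.76 ± 0.14; edgeR adjusted p = 0.000376), and the activin antagonist Fst had 138, 129 and 149.9 CPM in siChst7 and 83.7, 80.4 and 84.0 CPM in siControl libraries (0.75 ± 0.05; edgeR adjusted p = 1.12e-09). All siChst7 libraries lay below the siControl libraries for Bmp4 and above them for Fst. The 4 lower BMP genes became 1 without siChst7 replicate 2 or 3 and 2 without any 1 siControl library. The 4 HOX genes became 2 without siChst7 replicate 2 or siControl replicate 2 and 1 without siControl replicate 3, where 1 was higher. The 2 higher Notch genes became 1 without any single day 1 library other than siControl replicate 2. Of 32 genes of the integrated stress and unfolded protein responses 8 were higher and 4 lower, the 8 becoming 4 without siChst7 replicate 1 and 5 without siChst7 replicate 2 or siControl replicate 1 or 2, and the 4 becoming 1 without siChst7 replicate 3 or siControl replicate 1 or 2 and 2 without siChst7 replicate 2. Of 29 p53 targets and cell cycle inhibitors 2 were higher and 4 lower, shares not far from those of all genes.

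Epithelial keratin genes were higher at a very low level. Krt8, Krt18 and Krt19, the 3 epithelial markers tested, were all called higher. Krt18 lost its call with a replicate block (edgeR adjusted p = 0.07) and without any single day 1 library other than siChst7 replicate 1. Krt19 lost it without any single day 1 library other than siControl replicate 1, down to 0.85 without siControl replicate 3 (edgeR adjusted p = 0.201), and Krt8 without siChst7 replicate 2. The summed level of the 9 markers was 3.14 to 3.77 CPM in siChst7 and 1.08 to 1.6 CPM in siControl libraries. Of these markers 7 lay under 1 CPM in both groups, among them Epcam and Cdh1, and Krt14, Krt5 and Cldn4 were at 0.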
